A study of Mus musculus with 12 samples.

Results

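The transcription factors and regulators through which the circadian clock reaches its output genes were examined in liver RNA of mice with alcohol-associated steatohepatitis (ASH). They are Dbp, Tef and Hlf, which are PAR bZIP activators, their competitor Nfil3, the E-box repressors Ciart, Bhlhe40 and Bhlhe41, the nuclear receptor Rora, and the deubiquitinase Usp2. The genes were chosen by name, and each of the 9 symbols matched 1 of the 54232 Ensembl genes in the count table. All 9 had enough reads to be tested.

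RNA was sequenced from whole liver of mice of 2 groups, 5 that were pair-fed (PF) and 7 that were alcohol-fed (AF), with 1 library per mouse. All 12 were male C57BL6/J mice and the labels name no engineered allele. Their age is labelled 8-week, which cannot be the age at death of mice fed for 8 weeks, and the time it refers to is not stated. PF mice received an isocaloric high-fat liquid diet for 8 weeks, and AF mice received ethanol in that diet, raised to 27 g/kg/day, with a binge of 5 g/kg each week. Per the study's methods, the regimen combined feeding through a gastric tube with free access to a solid Western diet rich in cholesterol and saturated fat, after a first period on that diet or chow, and the solid food of the PF mice is not given separately. The mice were killed from late morning to early afternoon on the day after the last binge. Neither the hour of death of each mouse nor the light schedule of these mice is given in the sources used here, and each mouse gives 1 time point. The data therefore hold levels at 1 part of the day, not rhythms.

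The circadian clock of hepatocytes is a feedback loop in which BMAL1 (encoded by Arntl) and CLOCK bind E-boxes and drive genes whose products shut them off again. Some of the genes driven in this way, Dbp among them, encode transcription factors that carry the rhythm on to further genes. DBP, TEF and HLF activate D-box genes, including enzymes of drug and bile acid metabolism, while NFIL3 represses through the same D-box. RORA activates genes with a ROR element (RORE), which the REV-ERB proteins (encoded by Nr1d1 and Nr1d2) repress. CIART, BHLHE40 (DEC1) and BHLHE41 (DEC2) repress E-box driven transcription, and USP2 removes ubiquitin from clock proteins.

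Depth was 24129900 to 28594027 reads on genes per PF library and 25099033 to 30578639 per AF library. Levels are given as CPM (counts of a gene relative to the total of its library) scaled with TMM factors (0.832 to 0.901 for PF libraries, 0.880 to 1.36 for AF libraries). Of 14168 genes tested with edgeR's quasi-likelihood test at an adjusted p under 0.05, 5634 differed between AF and PF (39.8%), with 3116 higher (22%) and 2518 lower (17.8%) in AF. Scaling to library totals without TMM moved the median of all genes up by 0.359 on the log2 scale and changed the share of higher calls from 55.3% to 87.3%, so a difference below is relative to the TMM scale. With an offset for the GC content and length of each gene it was 43.9%. Each column name of the count table also carries a number whose meaning is not stated. By this header number, PF1, PF2, AF5, AF6 and AF7 are the 5 lowest, AF1 to AF4 the next 4 and PF3 to PF5 the 3 highest, so that only the low range holds both groups.

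None of the 9 genes was higher in AF by the edgeR test, and 5 were lower (Dbp, Tef, Hlf, Ciart and Bhlhe40), against 17.8% lower among all genes tested. The remaining 4 (Nfil3, Bhlhe41, Rora and Usp2) did not pass the threshold. At an unadjusted p under 0.05 the count of higher genes was also 0, as it was by DESeq2 and limma-voom. Without PF1, PF2 or AF3, the genes called lower were 3, 2 and 3. The median log2 fold change (AF minus PF) of the 9 genes was -1.07, and that of all genes tested was 0.039. Groups did not overlap for 1 gene, Hlf, which was lower in AF, while 9.49% of all genes tested were lower in AF without overlap and 8.2% higher. In whole tissue, fewer cells that express a gene and less of its RNA per cell cannot be told apart.

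**Figure D1:**
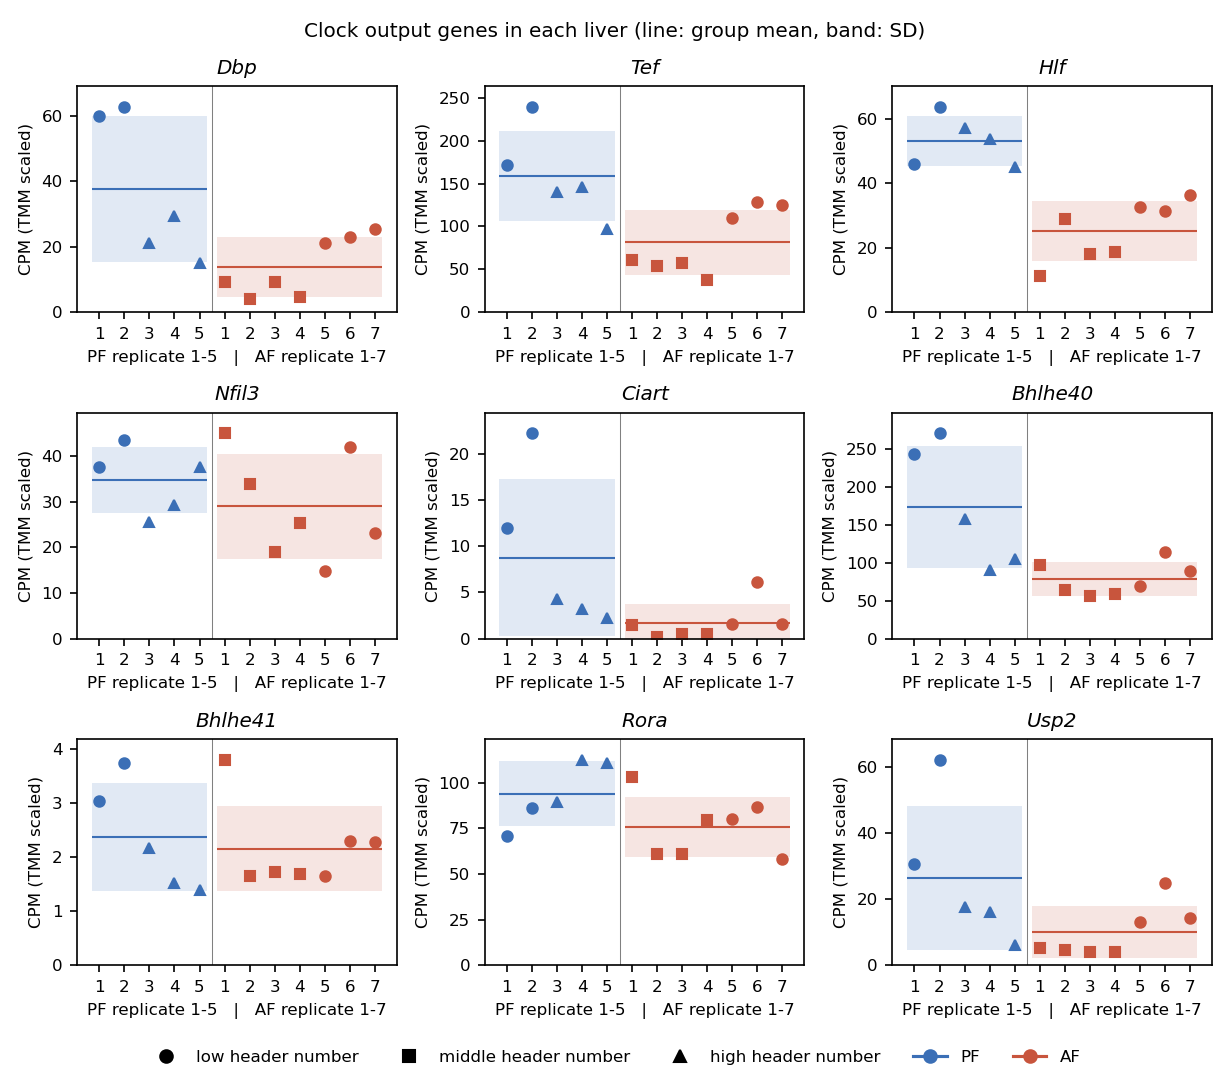
Level of each of the 9 genes in every liver, as CPM on TMM-scaled libraries (vertical axis, a separate linear scale from 0 for each gene) by group and replicate number (horizontal axis). Points are livers, their shape gives the range of the header number, lines are group means and bands reach 1 SD to each side. Hlf is the gene whose 7 AF livers all sit below its 5 PF livers, and for Bhlhe41 no AF liver is below the lowest PF liver.

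The start regions of some of these genes hold the elements through which the clock is known to act, and the ones with matches are printed to show the number and place of the elements. Windows were taken from RefSeq on GRCm38.p6, from 250 bases before to 50 bases after the annotated start, and 8 of the 9 genes (all but Bhlhe40) had at least 1 window. Both strands were searched for the E-box CACGTG, the D-box TTANGTAA, the RORE half-site TNGGTCA and the cAMP response element (CRE) TGACGTCA, and capitals mark the matches, none of which overlapped another. The Ciart window (chr3:95882179-95882478, minus strand) holds 3 E-boxes, that of Bhlhe41 (chr6:145865371-145865670, minus strand) holds 1, and Tef has 1 in each of its 2 windows, of which the downstream one is shown (chr15:81811164-81811463, plus strand) because it also holds a RORE half-site on the opposite strand. Nfil3 (chr13:52980990-52981289, minus strand) holds 1 RORE half-site on the opposite strand, and Hlf (chr11:90390868-90391167, minus strand) holds 1 CRE.
Ciart: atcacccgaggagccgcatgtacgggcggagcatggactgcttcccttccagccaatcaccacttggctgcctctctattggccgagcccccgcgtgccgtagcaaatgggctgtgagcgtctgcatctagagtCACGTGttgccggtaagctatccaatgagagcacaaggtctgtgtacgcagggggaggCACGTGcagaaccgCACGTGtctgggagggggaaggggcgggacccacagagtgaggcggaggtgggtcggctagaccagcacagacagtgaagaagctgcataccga
Bhlhe41: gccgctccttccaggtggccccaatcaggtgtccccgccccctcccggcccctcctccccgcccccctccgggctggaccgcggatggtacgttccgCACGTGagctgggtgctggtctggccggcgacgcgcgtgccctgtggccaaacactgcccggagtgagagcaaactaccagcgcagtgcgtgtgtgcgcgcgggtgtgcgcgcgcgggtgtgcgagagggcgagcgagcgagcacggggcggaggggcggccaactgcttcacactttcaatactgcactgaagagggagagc
Tef: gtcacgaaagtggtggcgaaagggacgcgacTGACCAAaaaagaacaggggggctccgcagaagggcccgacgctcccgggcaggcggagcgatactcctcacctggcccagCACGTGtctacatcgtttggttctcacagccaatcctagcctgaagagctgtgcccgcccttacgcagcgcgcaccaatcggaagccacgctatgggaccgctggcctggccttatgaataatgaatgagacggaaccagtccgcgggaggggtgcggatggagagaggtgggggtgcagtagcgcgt
Nfil3: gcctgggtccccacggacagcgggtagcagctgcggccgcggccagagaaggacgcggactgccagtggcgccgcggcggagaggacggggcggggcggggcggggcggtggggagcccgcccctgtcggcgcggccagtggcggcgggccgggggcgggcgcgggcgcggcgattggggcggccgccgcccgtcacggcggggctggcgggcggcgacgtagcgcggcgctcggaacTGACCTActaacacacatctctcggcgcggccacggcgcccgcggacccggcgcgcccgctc
Hlf: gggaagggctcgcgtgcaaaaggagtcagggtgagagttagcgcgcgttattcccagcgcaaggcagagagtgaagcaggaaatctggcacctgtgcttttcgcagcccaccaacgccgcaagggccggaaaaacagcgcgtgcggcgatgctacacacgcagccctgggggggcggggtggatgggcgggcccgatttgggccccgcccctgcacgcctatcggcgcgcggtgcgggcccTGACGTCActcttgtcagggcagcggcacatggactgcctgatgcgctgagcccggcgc
Counted from the start, the E-boxes of Ciart begin at -116, -58 and -44, that of Bhlhe41 at -153 and that of Tef at -138. The half-sites begin at -12 in Nfil3 and -219 in Tef, and the CRE of Hlf at -9. Among 32851 such windows of the mouse genome, 7.15% hold an E-box and 0.0883% (29 windows) hold 3 or more, 2.32% hold a D-box, 1.79% a CRE and 3602 windows a RORE half-site. The windows of Dbp, Rora and Usp2 hold none of these letters, which says nothing about elements outside them. A match describes the sequence and is not evidence of binding. The genes with an E-box in their window did not share 1 result: Ciart and Tef were lower in AF, whereas Bhlhe41 was not called.

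Dbp (ENSMUSG00000059824, chr7:45705088-45710203, plus strand, mm10) encodes the D-box activator whose liver transcript has one of the strongest daily rhythms known. Its level was 60.1, 62.9, 21.2, 29.4 and 14.96 CPM in PF1 to PF5, and 3.92 to 25.4 CPM in AF livers with a median of 9.22. PF1 and PF2 stood far above every AF liver, while PF3 and PF5 lay within the AF range. It fell from a PF mean of 37.7 CPM (SD 22.3, n = 5) to an AF mean of 13.8 CPM (SD 9.06, n = 7), with a log2 fold change of -1.45 (SE 0.496, 95% interval -2.52 to -0.39, edgeR adjusted p = 0.0327), with 4 of 7 AF livers below the lowest PF liver. The exact two-sided permutation test over all splits of the livers into 5 and 7 gave p = 0.0316, where the smallest p it allows is 0.00126. The call rested on single livers: the edgeR adjusted p was 0.0845 without PF1, 0.0943 without PF2, 0.0583 without AF1, 0.0613 without AF3 and 0.0536 without AF4. Dbp shares 539 exon bases with Sphk2 on the opposite strand, which has 4190 reads. The strand setting of the counting is not stated, so whether and in which direction the overlap altered the 7169 reads of Dbp is not known.

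Tef (ENSMUSG00000022389, chr15:81802421-81826863, plus strand) encodes the thyrotroph embryonic factor, a paralog of DBP. PF livers had 171, 240, 140, 146 and 97.4 CPM, and AF livers 37.1 to 128 CPM with a median of 60.8. AF1 to AF4 (37.1 to 60.8 CPM) were below all PF livers, and AF5 to AF7 (110 to 128 CPM) were above PF5. Tef fell from a PF mean of 159 CPM (SD 52.7, n = 5) to an AF mean of 81.8 CPM (SD 38.0, n = 7), with a log2 fold change of -0.96 (SE 0.313, 95% interval -1.63 to -0.29, edgeR adjusted p = 0.0269), and the exact permutation p was 0.0202. The edgeR adjusted p rose to 0.0510 without PF1, 0.0836 without PF2 and 0.0526 without AF3, and to 0.0518 with a log2 fold change of -0.65 on library totals.

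Hlf (ENSMUSG00000003949, chr11:90336536-90390895, minus strand) encodes hepatic leukemia factor, the third PAR bZIP activator. Its PF levels were close together at 46.2, 63.9, 57.1, 53.7 and 45.03 CPM, and AF livers had 11.2 to 36.5 CPM with a median of 28.9. Every AF liver was below every PF liver. It fell from a PF mean of 53.2 CPM (SD 7.85, n = 5) to an AF mean of 25.3 CPM (SD 9.37, n = 7), 0.475 of the PF level, with a log2 fold change of -1.07 (SE 0.243, 95% interval -1.60 to -0.55, edgeR adjusted p = 0.00431). The exact permutation p was 0.00379. The edgeR call held in all 12 fits without 1 liver, and was lost (log2 fold change -0.72, adjusted p = 0.123) when the range of the header number was added as a term after seeing the data.

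The 3 PAR bZIP activators bind the same element, so their levels per kb of annotated exon were also added up, and the shares below depend on this divisor. The sum of Dbp, Tef and Hlf was 40.8 ± 14.4 CPM per kb (SD, n = 5, 24.1 to 61.1) in PF and 18.8 ± 8.92 CPM per kb (SD, n = 7, 9.03 to 29.9) in AF. AF1 to AF4 had 9.03 to 13.1 CPM per kb, below all PF livers. AF5 to AF7 had 25.9 to 29.9 CPM per kb, above PF5 (24.1) and below the other 4 PF livers. Tef supplied the largest share of the sum in every liver, on average 50.04% in PF and 55.6% in AF, while Dbp supplied 28.9% and 22.6%, and Hlf 21.1% and 21.9%.

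**Figure D2:**
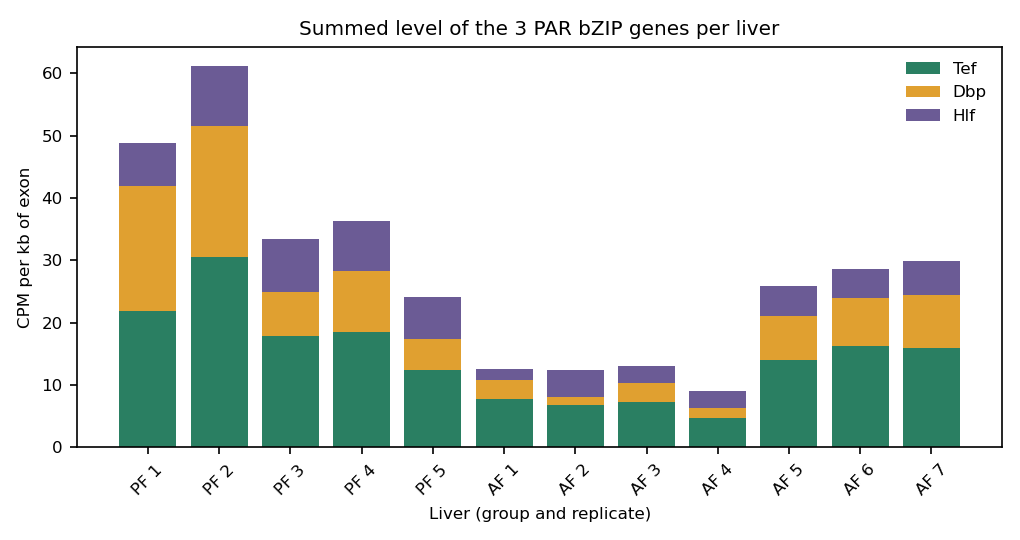
Summed level of the PAR bZIP activators in each liver (vertical axis, CPM per kb of exon, from 0; horizontal axis, liver by group and replicate), divided into Dbp, Tef and Hlf by colour. AF1 to AF4 are the 4 lowest bars (9.03 to 13.1), and PF2 (61.1) and PF1 (48.8) are the highest.

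Nfil3 (ENSMUSG00000056749, chr13:52967209-52981073, minus strand) encodes the basic leucine zipper repressor E4BP4, which competes for the D-box. PF livers had 37.8, 43.7, 25.5, 29.3 and 37.6 CPM, and AF livers 14.9 to 45.1 CPM with a median of 25.3. The AF range spanned that of PF on both sides. The PF mean was 34.8 CPM (SD 7.29, n = 5) and the AF mean 29.0 CPM (SD 11.6, n = 7), with a log2 fold change of -0.26 (95% interval -0.81 to 0.29, edgeR adjusted p = 0.435), which became 0.11 on library totals. The exact permutation p was 0.278. The interval leaves room for a change of either sign.

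Within each liver, the activators were set against Nfil3 as a log2 ratio of CPM per kb, as a description. Hlf over Nfil3 was -1.09 ± 0.39 (SD, n = 5) in PF and -1.92 ± 0.99 (SD, n = 7) in AF, with 5 of 7 AF livers below the lowest PF liver. Dbp over Nfil3 was -0.64 ± 0.80 in PF and -1.87 ± 1.36 in AF, and Tef over Nfil3 was 0.20 ± 0.45 and -0.50 ± 0.96, each with 3 of 7 AF livers below the PF range. For Tef over Nfil3, 1 AF liver (AF5) was above the PF range. Between activators, Tef over Hlf was 1.30 ± 0.36 in PF and 1.42 ± 0.55 in AF, and the groups overlapped.

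Ciart (ENSMUSG00000038550, chr3:95878503-95882251, minus strand) encodes a repressor of the BMAL1 and CLOCK complex, also called CHRONO. It had 11.95, 22.2, 4.25, 3.18 and 2.17 CPM in PF1 to PF5, and 0.154 to 6.06 CPM in AF livers with a median of 1.502. AF6 (6.06 CPM) lay within the PF range, and the other 6 AF livers were below it. Ciart fell from a PF mean of 8.75 CPM (SD 8.46, n = 5) to an AF mean of 1.69 CPM (SD 2.02, n = 7), 0.192 of the PF level and the largest fold change of the 9 genes, at a log2 fold change of -2.38 (SE 0.747, 95% interval -3.99 to -0.77, edgeR adjusted p = 0.0227). The exact permutation p was 0.0189. The log2 fold change ranged from -1.68 without PF2, where the call was lost (edgeR adjusted p = 0.0970), to -3.16 without AF6 (edgeR adjusted p = 0.00244). Its level rests on few reads, 960 over the PF and 356 over the AF libraries, of which AF2 had 4.

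Bhlhe40 (ENSMUSG00000030103, chr6:108660629-108666925, plus strand) encodes the repressor DEC1, which also responds to hypoxia and cytokines. PF1 to PF5 had 243, 271, 157, 91.1 and 104 CPM, and AF livers 56.0 to 114 CPM with a median of 69.0. In this gene 5 of 7 AF livers were below the PF range, and AF1 and AF6 reached the level of PF4 or PF5. Bhlhe40 fell from a PF mean of 174 CPM (SD 81.0, n = 5) to an AF mean of 78.2 CPM (SD 22.3, n = 7), with a log2 fold change of -1.15 (SE 0.277, 95% interval -1.74 to -0.55, edgeR adjusted p = 0.00601), and the exact permutation p was 0.0101. The call held in all 12 fits without 1 liver, with edgeR adjusted p from 0.00315 to 0.0213.

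Bhlhe41 (ENSMUSG00000030256, chr6:145858243-145865558, minus strand) encodes DEC2, the close paralog of DEC1. It was low in both groups, at 3.05, 3.75, 2.17, 1.53 and 1.40 CPM in PF livers and 1.65 to 3.81 CPM in AF livers with a median of 1.73. The groups overlapped throughout, and no AF liver was below the lowest PF liver. The PF mean was 2.38 CPM (SD 1.01, n = 5) and the AF mean 2.16 CPM (SD 0.783, n = 7), with a log2 fold change of -0.13 (95% interval -0.77 to 0.50, edgeR adjusted p = 0.741) that became 0.26 on library totals, 0.029 with limma-voom sample weights and 0.087 without PF2. The exact permutation p was 0.746. Bhlhe41 shares 1280 exon bases with the model Gm43909 on the opposite strand, on which 1 read was counted in all.

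The DEC paralogs were also set against each other within each liver. Per kb, Bhlhe40 was on average 102 times the level of Bhlhe41 in PF livers and 52.4 times in AF livers. As log2 ratios, the 5 PF livers had 6.41 to 6.83 and the 7 AF livers 5.19 to 6.15. All 7 AF livers lay below the PF range, although each gene by itself overlapped between the groups. It was the only ratio without overlap among those computed between the 9 genes. The share of other gene pairs that separate in this way was not computed. Bhlhe41 rests on few reads, 266 over the PF and 486 over the AF libraries. The ratio is given as a description without a test.

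**Figure D3:**
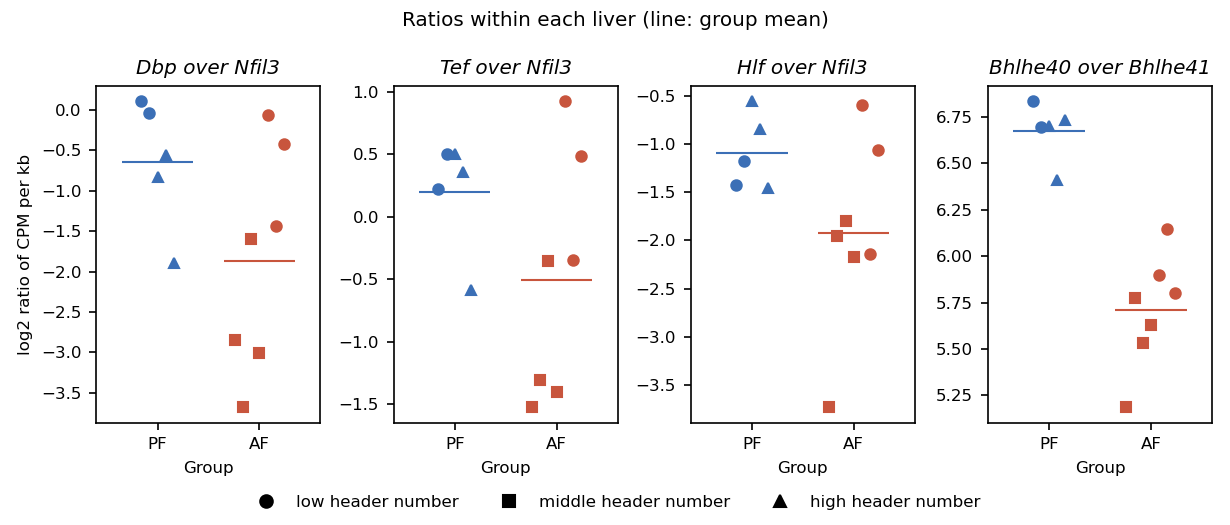
Log2 ratio of CPM per kb within each liver (vertical axis) for pairs of genes that bind the same element, by group (horizontal axis). Points are livers, shapes give the header number range and lines are group means. Bhlhe40 over Bhlhe41 separates the groups (PF 6.41 to 6.83, AF 5.19 to 6.15), while the ratios to Nfil3 overlap. The share of other gene pairs that separate was not computed.

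Rora (ENSMUSG00000032238, chr9:68653786-69388246, plus strand) encodes RORα, which activates Arntl through ROREs. PF livers had 70.7, 86.4, 89.2, 113 and 111 CPM, and AF livers 58.2 to 103 CPM with a median of 79.7. PF4 and PF5 were the highest of all livers, and AF2, AF3 and AF7 were below the PF range. The PF mean was 93.9 CPM (SD 17.7, n = 5) and the AF mean 75.7 CPM (SD 16.6, n = 7), with a log2 fold change of -0.31 (95% interval -0.66 to 0.04, edgeR adjusted p = 0.139) that became 0.067 on library totals. The exact permutation p was 0.109. With limma-voom sample weights the log2 fold change was -0.47 and the adjusted p was 0.0126, the one setting that called Rora.

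Usp2 (ENSMUSG00000032010, chr9:44067021-44095627, plus strand) encodes a ubiquitin-specific protease whose liver transcript follows the clock. PF livers had 30.6, 62.2, 17.5, 16.03 and 5.97 CPM, and AF livers 4.01 to 24.96 CPM with a median of 5.28. AF1 to AF4 (4.01 to 5.28 CPM) were below all PF livers, whereas AF5 to AF7 (13.1 to 24.96 CPM) were above PF5. The PF mean was 26.5 CPM (SD 21.8, n = 5) and the AF mean 10.04 CPM (SD 7.91, n = 7), with a log2 fold change of -1.40 (SE 0.572, 95% interval -2.63 to -0.17, edgeR adjusted p = 0.0661) and an exact permutation p of 0.0682. Usp2 passed the threshold without PF5 (edgeR adjusted p = 0.0338) and without AF6 (0.0167), and its log2 fold change was -0.81 without PF2. It also passed with the GC and length offset (edgeR adjusted p = 0.0454), with limma-voom sample weights (0.0492) and with the header number range as a term (0.0471), but not in the 5 livers of the low range alone (0.0965).

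The spread between mice of 1 group was wide for Ciart, Usp2 and Dbp. Their SD of log2 CPM among PF livers was 1.38, 1.24 and 0.912, higher than in 99.4%, 99.1% and 96.9% of all genes tested, whose median SD was 0.214. In AF livers the same genes were at the percentiles 98.9, 95.7 and 96.1. Bhlhe40 was spread in PF (percentile 93.1) more than in AF (64.3), whereas Hlf was at 49.3 in PF and 83.6 in AF. Rora was near the middle of all genes in both groups, at 62.5 and 52.3.

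For several of these genes the livers of a group differed between ranges of the header number, a split examined after seeing the data. Within a range the number did not always order the livers: Dbp was 21.2, 29.4 and 14.96 CPM in PF3, PF4 and PF5. In PF, both livers of the low range were above all 3 of the high range for 7 of the 9 genes (all but Hlf and Rora), an order found in 20.3% of all genes tested. In AF, the 3 livers of the low range were above all 4 of the middle range for Dbp, Tef, Hlf, Ciart and Usp2, an order found in 6.07% of all genes. Mean Dbp was 61.5 CPM in PF and 23.1 CPM in AF livers of the low range, 6.74 CPM in the AF livers of the middle range and 21.9 CPM in the PF livers of the high range. Mean Usp2 was 46.4, 17.5, 4.47 and 13.2 CPM in the same order, and mean Tef was 206, 121, 52.2 and 128 CPM. The part of whatever the number records in these levels was not tested.

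Within the low range, the 2 PF livers were above the 3 AF livers for 7 of the 9 genes (all but Nfil3 and Rora), against 19.5% of all genes. The 3 PF livers of the high range were above the 4 AF livers of the middle range for Dbp, Tef, Hlf, Ciart and Usp2, against 24.8% of all genes. With the range as a term in edgeR, chosen after seeing the data, 1856 genes were called in all. Only the low range holds both groups, so the difference between groups in this fit comes from its 5 livers. In this fit Dbp (log2 fold change -1.41, adjusted p = 0.0239), Tef (-0.77, 0.0494), Ciart (-2.49, 0.0397), Bhlhe40 (-1.50, 0.00852) and Usp2 (-1.41, 0.0471) were lower in AF. In edgeR on the 5 livers of the low range alone, which called 367 genes, Dbp (-1.45, adjusted p = 0.0100) and Bhlhe40 (-1.53, 0.0324) were lower, while Tef (-0.80, 0.101), Hlf (-0.75, 0.0881), Ciart (-2.52, 0.0879) and Usp2 (-1.44, 0.0965) were not called.

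**Figure D4:**
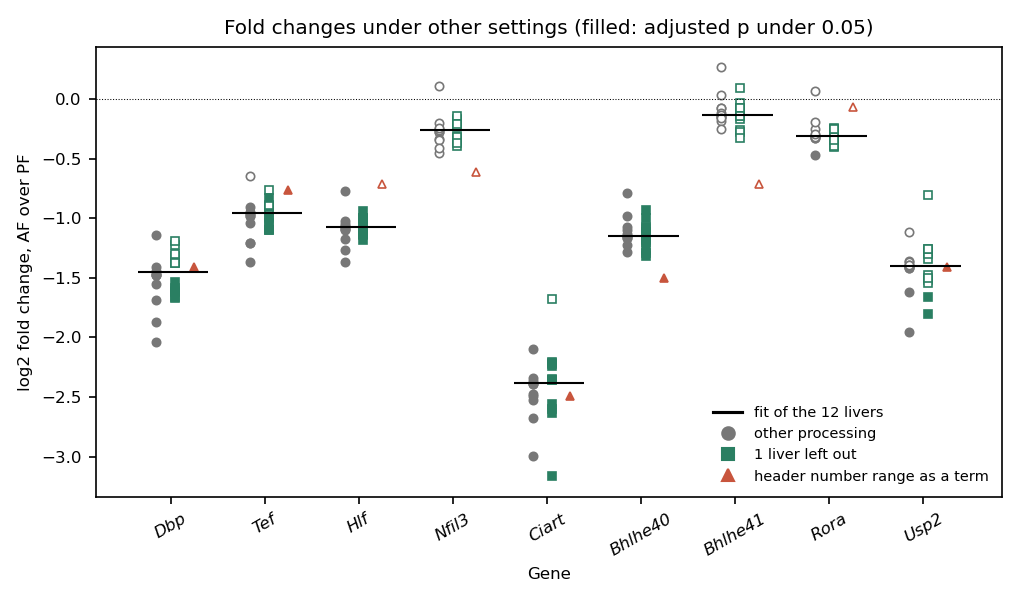
Log2 fold change of AF against PF (vertical axis) for each gene (horizontal axis) in the fit of the 12 livers (line), under other processing (circles), without 1 liver (squares) and with the header number range as a term (triangles), filled where the adjusted p was under 0.05. Dbp, Tef, Hlf, Ciart, Bhlhe40 and Usp2 stay below 0 in all of them, and Nfil3, Bhlhe41 and Rora reach 0.11, 0.26 and 0.067 on library totals.

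Per kb of exon, Bhlhe40 had the highest level in PF (36.9 CPM per kb), followed by Tef (20.2), Nfil3 (17.2), Dbp (12.6), Hlf (7.96), Rora (7.19), Usp2 (5.49), Ciart (3.87) and Bhlhe41 (0.354). Among neighbours in this order, the livers of Ciart and Bhlhe41 did not overlap, and all other neighbours did. In AF the order was Bhlhe40 (16.6 CPM per kb), Nfil3 (14.3), Tef (10.4), Rora (5.79), Dbp (4.59), Hlf (3.78), Usp2 (2.08), Ciart (0.747) and Bhlhe41 (0.322), and every pair of neighbours overlapped. Nfil3 thus ranked above Tef, and Rora above Dbp and Hlf, in AF, but not beyond the spread between livers.

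For each gene, the genes with the most similar profile were sought among 9868 genes (average log2 CPM of 2 or more), by the root mean square difference of centred log2 CPM over the 12 livers, which all values share. The nearest gene to Dbp was Per3, a clock repressor (0.413), followed by Usp2 (0.495). The nearest to Usp2 were Dbp (0.495) and Tef (0.577), so that Dbp and Usp2 were most like each other or another clock gene. To Ciart the nearest were Dbp (0.845) and Usp2 (0.850), but these differences were the largest found for any of the genes. Ciart was itself below the level required of a candidate, so it could not be named as nearest to another gene. Tef was nearest to Gys2, the liver glycogen synthase (0.301), and Slc17a2 (0.339), and Hlf to Akr1c20 (0.223) and Mfsd4b1 (0.229). Nfil3 was nearest to Nfkbia, the NF-κB inhibitor (0.297), and Srsf4 (0.300), and Bhlhe40 to Foxa3 (0.337) and Slc38a3 (0.345). Bhlhe41 was nearest to Sik1, a salt-inducible kinase (0.189), and Lmbr1l (0.270), and Rora to Bdp1 (0.135) and Klf3 (0.144).

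The core loop, from which these outputs are driven, was measured in the same livers. Of 14 core clock genes, 4 were higher, 5 lower and 5 not called in AF (edgeR), beside 22% higher and 17.8% lower among all genes tested, with a median log2 fold change of -0.37 against 0.039 for all genes tested. On library totals 4 were higher and 1 lower, where 6452 of the 14168 genes tested were higher and 939 lower. With the header number range as a term 1 was higher and 3 were lower. In the 5 livers of the low range alone 0 were higher and 1 lower. Both of these fits called fewer genes in all, as given above. The GC and length offset gave 1 higher and 7 lower, beside 2482 and 3167 of all genes. RLE scaling and limma-voom each gave 2 higher and 5 lower, beside 2989 and 2678 (RLE) and 2619 and 2580 (limma-voom) of all genes. Without any 1 of PF1 to PF5 or AF1 to AF4 the higher genes were 1 or 2, and without PF2, PF3, PF4, AF3 or AF4 the lower genes were 3. The activators Arntl (log2 fold change 1.21, edgeR adjusted p = 0.0479) and Npas2 (2.37, 0.0422) were higher in AF. Arntl was 5.17 to 7.35 CPM in AF5 to AF7 and 15.3 to 23.0 CPM in AF1 to AF4, the reverse of the order seen for Dbp, and 2.24 to 11.4 CPM in PF. The repressors Per2 (-1.13, edgeR adjusted p = 0.0287), Per3 (-1.23, 0.0417), Nr1d1 (-1.17, 0.000438) and Nr1d2 (-0.77, 0.0124) were lower. Nr1d1 and Nr1d2 kept the edgeR call in all 12 fits without 1 liver. Arntl and Per3 lost it without any 1 of PF1 to PF4 or AF1 to AF4, Npas2 without PF1, PF2, PF4, PF5 or AF1 to AF4, and Per2 without PF2, PF3, PF4, AF3 or AF4. Clock itself was at a PF mean of 56.3 CPM (SD 15.9, n = 5) and an AF mean of 54.2 CPM (SD 7.97, n = 7) and was not called.

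**Figure D5:**
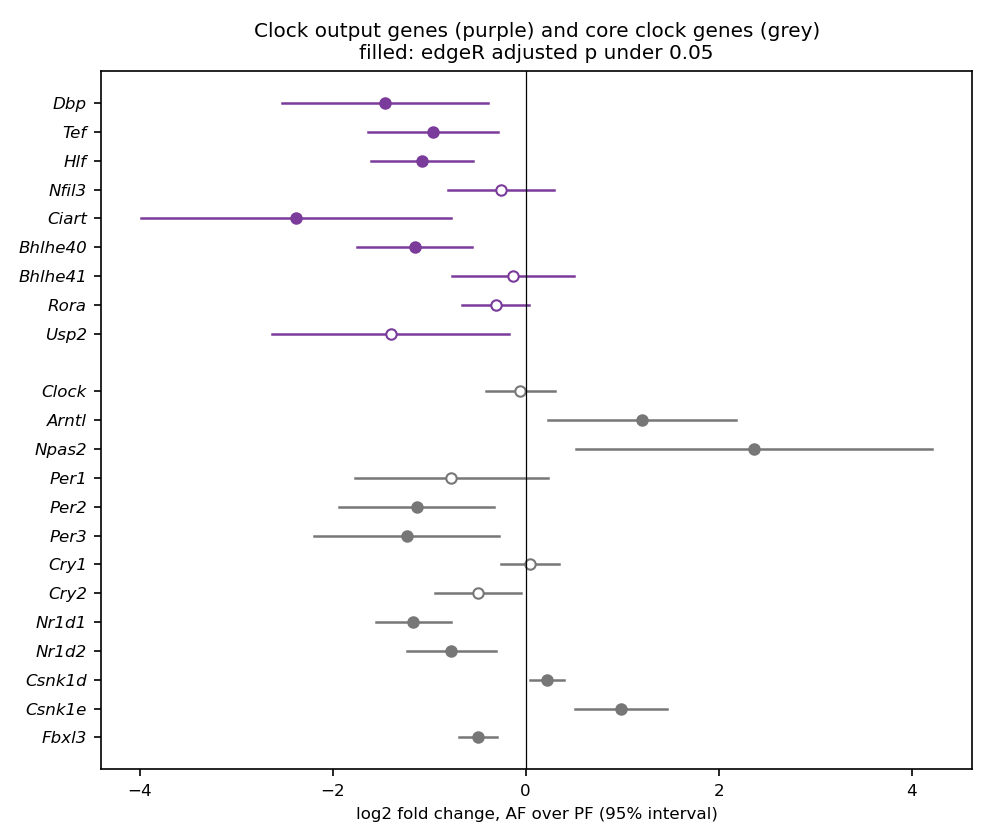
Log2 fold change of AF against PF from edgeR (horizontal axis) for the 9 output genes (purple) and core clock genes (grey, vertical axis), with 95% confidence intervals as bars and filled points where the adjusted p was under 0.05. Dbp, Tef, Hlf, Ciart and Bhlhe40 are filled and lie below 0, the interval of Usp2 ends below 0 without passing the adjusted threshold, and Arntl (1.21) and Npas2 (2.37) lie above 0.

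Of 9 rhythmic output genes of liver, 5 were lower in AF and 0 higher by the edgeR test (0 also at an unadjusted p under 0.05, by DESeq2 and by limma-voom), beside 17.8% lower and 22% higher among all genes tested, with a median log2 fold change of -0.76. The largest was Elovl3, a fatty acid elongase, at a PF mean of 156 CPM (SD 94.5, n = 5) and an AF mean of 7.12 CPM (SD 12.5, n = 7) (log2 fold change -4.48, edgeR adjusted p = 0.00527). AF6 had 33.9 CPM of Elovl3, and without it the AF mean was 2.67 CPM and the log2 fold change -5.93 (edgeR adjusted p = 0.00037). Upp2, a uridine phosphorylase, was at a PF mean of 519 CPM (SD 162, n = 5) and an AF mean of 44.2 CPM (SD 31.7, n = 7) (-3.56, edgeR adjusted p = 9.2e-05). Lpin1, a phosphatidate phosphatase, had a log2 fold change of -3.17, and Nampt and Gys2, also lower, had -0.56 and -0.76. Gys2 lost the edgeR call without any 1 of PF1, PF2, PF4 or AF1 to AF5, with an adjusted p of up to 0.144. On library totals 3 of the 9 were lower and 1 was higher, beside 939 lower and 6452 higher of all genes. With the header number range as a term 2 were lower, and 1 in the 5 livers of the low range alone. Both of these fits called fewer genes in all.

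Of 8 known targets of the PAR bZIP activators, 3 were higher in AF (edgeR), 0 were lower and 5 were not called, beside 22% and 17.8% of all genes tested, with a median log2 fold change of 0.17. At an unadjusted p under 0.05, 1 target (Cyp7a1) was lower, and DESeq2 and limma-voom also called 0 lower. Cyp2a5, a coumarin hydroxylase, rose from a PF mean of 721 CPM (SD 136, n = 5) to an AF mean of 3288 CPM (SD 2061, n = 7), with a log2 fold change of 2.19 (edgeR adjusted p = 0.00181), and Cyp2b10 rose by 1.52 (edgeR adjusted p = 0.0181). Cyp2a4, which is nearly identical to Cyp2a5 and can share its reads, was also higher and its value is uncertain. Cyp7a1, the rate-limiting enzyme of bile acid synthesis, was at a PF mean of 175 CPM (SD 54.6, n = 5) and an AF mean of 69.5 CPM (SD 55.2, n = 7) (log2 fold change -1.33, edgeR adjusted p = 0.0717), and Por, Alas1 and Nr1i3 were not called. Without AF2, Cyp7a1 passed the threshold (-1.73, edgeR adjusted p = 0.0228), and without AF7 it did not but Alas1, the first enzyme of heme synthesis, did (-0.91, edgeR adjusted p = 0.00824, against -0.32 and 0.571 with all livers). With the replicate number as a block 2 targets were higher and 2 lower.

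Of 7 targets of ROR proteins, 2 were higher (Arntl and Npas2), 1 was lower and 4 were not called by edgeR, beside 22% higher and 17.8% lower of all genes tested, with a median log2 fold change of 0.048. The higher calls numbered 0 with the GC and length offset, by limma-voom and without any 1 of PF1, PF2, PF4 or AF1 to AF4, and 1 with RLE scaling and without PF3 or PF5, while 2 genes were lower without AF2. With the header number range as a term 1 was higher and 1 lower, and in the low range alone 0 and 0, where fewer genes were called in all. The lower one with all livers was Cyp7b1, an oxysterol hydroxylase, at a PF mean of 195 CPM (SD 53.0, n = 5) and an AF mean of 42.8 CPM (SD 28.6, n = 7) (log2 fold change -2.19, edgeR adjusted p = 0.000690). Glucocorticoids reset peripheral clocks, and of 8 glucocorticoid-induced genes 1 was higher (Sgk1) and 2 were lower (Tsc22d3 and Tat), with a median log2 fold change of -0.71, beside 22% higher and 17.8% lower among all genes tested. The lower genes were 1 on library totals, 1 with the header number range as a term, 3 without PF3 or AF1, 3 also by DESeq2, by limma-voom with and without sample weights, with the GC and length offset and with the replicate number as a block, and 4 without AF6, and in the 5 livers of the low range 0 were higher and 0 lower. Library totals called 939 of all genes lower, and the fits with the range term and in the low range called fewer genes in all. The named glucocorticoid-induced genes kept their calls without each liver. Hypoxia induces Bhlhe40, and of 8 hypoxia-induced genes 3 were higher (Slc2a1, Adm and Car9) and 1 was lower (Vegfa), with a median of 0.051, beside the same shares of all genes. The lower genes were 2 by DESeq2, limma-voom and without AF2 or AF6, and 3 without AF7, with limma-voom sample weights and with the replicate number as a block. On library totals 4 were higher and 1 lower, beside 6452 higher and 939 lower of all genes. With the header number range as a term 2 were higher and 0 lower, and in the low range alone 0 and 0, again with fewer genes called in all.

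Markers of Kupffer cells, recruited macrophages, stellate cells and bile ducts were mostly higher in AF, and few markers of the other cell types were called. The counts below stand beside 22% higher and 17.8% lower among all genes tested. Of 4 hepatocyte markers, Apoa1 was lower in AF and the other 3 were not called (edgeR), with summed levels of 80700 to 121000 CPM in PF and 40900 to 90800 CPM in AF. All 4 had log2 fold changes below 0, with a median of -0.70. Ttr (-0.80, edgeR adjusted p = 0.0565) was also lower at an unadjusted p under 0.05. Kupffer cell markers were higher for 4 of 5 (573 to 777 CPM in PF, 776 to 2370 in AF), recruited macrophage markers for 4 of 7 (10.9 to 48.3 and 36.1 to 502), stellate cell markers for 5 of 6 (38.7 to 82.7 and 76.9 to 425) and bile duct markers for 4 of 5 (49.5 to 243 and 70.2 to 1090). Of 5 neutrophil, 2 tested NK cell and 4 B cell markers, 0 were called by edgeR, and 2, 0 and 2 of them were lower at an unadjusted p under 0.05. Of the others, 1 of 5 sinusoidal endothelium markers was higher (Lyve1), and 1 of 5 T cell markers (Cd4) and 1 of 3 red blood cell markers (Alas2) were lower. The defining hepatocyte transcript Alb was at a PF mean of 89740 CPM (SD 14940, n = 5) and an AF mean of 59140 CPM (SD 17050, n = 7) (log2 fold change -0.60, edgeR adjusted p = 0.164). No marker was at 0 in all livers, and the part of cell composition in the levels of the 9 genes was not tested.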

How the data were processed

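Poly(A) RNA of whole liver was sequenced by the authors with a stranded kit. They deposited raw read counts per gene. The submitters' processing notes name FastQC 0.10.1, TopHat2 2.0.13, HTSeq 0.10.0 and GRCm38. The annotation and strand setting of the counting are not given in the sources used here. Of 54232 gene IDs, 54165 were named by GENCODE M21. Columns were assigned to mice by the group and replicate in their names, and no column was left out. FPKM values and the Cuffdiff2 comparison were not used here.

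Counts were TMM-scaled, filtered with filterByExpr by group and tested with edgeR 4.0.16 (quasi-likelihood, AF against PF, no covariate, Benjamini-Hochberg over all genes tested, threshold 0.05) in R 4.3.3. Permutation tests used log2 CPM with a prior count of 2. CPM per kb divides by the union of exons. The genes and lists were chosen with earlier results of these data known. The text names all 9 genes, the 2 nearest profiles of each, and members of the fixed lists. The values of 1 gene of these lists are not reported here. Alternatives were DESeq2 1.42.0, limma 3.58.1 voom with and without sample weights, other scalings and filters (a mean of 10 counts, 1 count in any library), thinning to the smallest library, a GC and length offset (mgcv 1.9.3), the replicate number as a block, and each liver left out. The tests were tried on simulated counts before use. Libraries of 1 group differed by at least 21.1 times the counting noise, so none was a repeat.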

Additional observations from a re-analysis of the deposited data

Results flagged for a closer look

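Within groups, 2 livers stood apart in single genes by Dixon's criterion. Ciart in AF6 was 6.06 CPM, the highest of the 7 AF livers and far from the next (1.55 CPM). Bhlhe41 in AF1 was 3.81 CPM, against 2.31 CPM in the next AF liver. In all, 18 groups of values were examined, and chance alone puts about 1 in 20 such groups beyond the limit, or 0.9 here.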

How the results depend on the processing

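Over 11 alternatives that kept all livers, 4 to 7 of the 9 genes were lower in AF and 0 were higher, and 5199 to 7513 genes were called in all. Dbp, Hlf, Ciart and Bhlhe40 kept their edgeR, DESeq2 or limma call in 11 of 11, and Tef in 10 of 11. On library totals, 6452 genes were higher and 939 lower, Tef was -0.65 (edgeR adjusted p = 0.0518), and Nfil3 (0.11), Bhlhe41 (0.26) and Rora (0.067) changed sign. With limma-voom sample weights, Bhlhe41 was 0.029, Rora -0.47 (adjusted p = 0.0126) and Usp2 -1.41 (0.0492). With the GC and length offset Usp2 was -1.62 (edgeR adjusted p = 0.0454). The cause of these changes was not tested.

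Leaving out 1 liver at a time left 2 to 6 of the genes lower. It gave log2 fold changes of -1.67 to -1.19 for Dbp, -1.10 to -0.77 for Tef, -3.16 to -1.68 for Ciart, -1.81 to -0.81 for Usp2 and -0.33 to 0.087 for Bhlhe41. Without PF1, PF2 and AF3, the genes called lower were 3, 2 and 3.

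With the header number range as a term, added after seeing the data, 1856 genes were called (1074 higher, 782 lower), Hlf was -0.72 (edgeR adjusted p = 0.123) and Usp2 -1.41 (0.0471). In the 5 livers of the low range, 367 genes were called (179 higher, 188 lower) and 2 of the 9 genes were lower, with Tef at -0.80, Hlf at -0.75 and Ciart at -2.52. Fewer livers entered this fit, and the difference between groups in the fit with the term also comes from these 5.

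Equal replicate numbers did not pair the livers: deviations of PF and AF livers of 1 number correlated at -0.0749 to 0.117, and 1 of 5 numbers matched best with itself. With the replicate number as a block, 6334 genes and 6 of the 9 genes were called, the added one being Usp2 (-1.96, edgeR adjusted p = 0.0367). Ciart and Bhlhe41 rest on the fewest reads, which limits their precision.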
